A study of Oryza sativa Japonica Group with 24 samples.

Results

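Roots of the T-DNA mutant spx4, which bears the name of its affected gene SPX4, were set against roots of bHLH6-OV, a line overexpressing the transcription factor gene bHLH6, in Japonica rice. Both lines were grown with 200 µM phosphate (Pi). The comparison took the 3 spx4 root libraries and the 3 bHLH6-OV root libraries at that supply, by their labels, which made 6 of the 24 messenger RNA libraries of the series. Supply began in seedlings 7 days old and lasted 2 weeks, so the plants were 21 days old at sampling, and 3 seedlings were pooled for each library. Wild type (WT) roots at 200 µM Pi and at 10 µM Pi (low Pi), with 3 libraries each, serve here as reference levels, and the shoots of both lines as a second tissue. Each genotype is given as 1 line, so effects of the insertion site, of the line's history or of its genetic background cannot be told apart from those of the named gene. The promoter that drives bHLH6, the position of the T-DNA in SPX4 and the background of each line are not given in the sources used here.

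Plants sense Pi through SPX proteins, which bind inositol pyrophosphates when Pi is ample. In rice, SPX4 then holds the transcription factor PHR2 outside the nucleus, and its breakdown under Pi shortage frees PHR2 to switch on Pi starvation genes such as Pi transporters, phosphatases, SPX1, SPX2 and the non-coding RNA IPS1. bHLH6, also named RERJ1, is a jasmonate-responsive basic helix-loop-helix factor that is known to bind SPX4, so the contrast asks how roots lacking full SPX4 function differ from roots with surplus bHLH6.

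Levels are the deposited FPKM, reads divided by gene length and by a total per library, given as mean ± SD over 3 libraries or as the 3 library values in the order of replicates 1, 2 and 3. Log2 fold changes are spx4 over bHLH6-OV on log2(FPKM + 1), which understates the change of low genes. A gene is called where limma's adjusted p was under 0.05. Reads in genes numbered 26.1 to 29.6 M in spx4 roots and 22.4 to 26.9 M (mega) in bHLH6-OV roots. Replicate libraries of a line correlated at 0.978 or above on the log2 scale, with replicates 1 and 3 of spx4 the least alike, and the labels call them biological replicates without giving whether they were grown apart. The root markers RCc3, SHR1, SCR1, CASP1, LSI1, LSI2, PHO1-2, NAR2.1 and IRT1 were all detected, with a summed level of 3875 to 4458 FPKM in spx4 roots and 3676 to 4326 in bHLH6-OV roots, against 18.1 to 42.6 in the shoots of these lines. Photosystem and light-harvesting genes, markers of green tissue, summed to 209 to 485 FPKM in spx4 roots, 476 to 627 in bHLH6-OV roots and 174 to 215 in WT roots, against 26926 to 80389.9 in the shoots of both lines, and 13 of the 44 were at 0 in all 6 root libraries. Of the 20 tested, 0 were called by limma (6 at an unadjusted p under 0.05, all lower in spx4, and 2 called lower with the replicate number as a block or without spx4 replicate 1), with a median log2 fold change of -0.61, and the part of green tissue in the results below was not tested. In whole roots, fewer cells of a type and less RNA per cell cannot be told apart.

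The manipulated genes were read first. bHLH6 (LOC_Os04g23550, chromosome 4 from 13466420 to 13468869) stood at 115, 124 and 164 FPKM in the 3 bHLH6-OV root libraries and at 1.68, 1.58 and 8.07 in the 3 spx4 libraries, with 4.75 ± 1.32 in WT roots. Every bHLH6-OV library lay above every spx4 library, a 35.6-fold difference of means (log2 fold change -5.07, limma adjusted p = 0.000434), and spx4 replicate 3 held more bHLH6 RNA than replicates 1 and 2. SPX4 (LOC_Os03g61200, chromosome 3 from 34756011 to 34758997) stood at 6.69, 5.21 and 6.73 FPKM in spx4 roots and 12.4, 9.66 and 10.9 in bHLH6-OV roots, with 11.3 ± 0.193 in WT. The mutant thus kept SPX4 RNA at a lower level than the overexpressing line in all libraries (log2 fold change -0.74, limma adjusted p = 0.000979). Whether the insertion leaves a working transcript cannot be told from a total per gene. Both genes went the way of their labels.

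The 2 lines differed in a limited part of the root transcriptome, and most of the larger differences were RNAs that spx4 roots held less of. Of 22090 genes tested, 1454 were called (6.58%), 690 higher in spx4 (3.12%) and 764 lower (3.46%). Calls with at least a 2-fold difference numbered 385 (1.74%), of which 100 were higher in spx4 (0.453%) and 285 lower (1.29%). At 8-fold or more there were 13 higher and 67 lower, and at 16-fold or more 6 higher and 28 lower. In 1454 of the 1454 called genes the 3 libraries of 1 line lay outside the range of the other 3, as they did in 24.9% of all genes tested. At an unadjusted limma p under 0.05 there were 2645 higher and 2333 lower. The count of calls fell to 813 without spx4 replicate 2 and to 902 without spx4 replicate 3, and rose to 1055 higher and 904 lower without spx4 replicate 1.

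The same fit gave each line's own distance from WT roots. bHLH6-OV differed from WT in 3975 genes (18%) and spx4 in 543 (2.46%), comparisons that share the WT libraries, while Pi shortage changed 6941 genes in WT roots (31.4%). Among the genes called higher in spx4 than in bHLH6-OV, the WT mean lay nearer to spx4 in 592 of 690. Among those called lower it lay nearer to spx4 in 537 of 764. Over all genes tested the WT mean was nearer to spx4 in 69.7% of cases, and for the 2-fold calls in 65 of 100 higher and 188 of 285 lower.

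The named gene with the largest excess in spx4 roots was LOC_Os08g27870, annotated as EARLY FLOWERING 4 and called ELF4-like here, a family known from the Arabidopsis circadian clock. It stood at 65.4, 67 and 67.7 FPKM in spx4 roots and 0, 0.174 and 0 in bHLH6-OV roots, with 0.0189 ± 0.0328 in WT (log2 fold change 6.0, limma adjusted p = 6.93e-13). A nitrite/sulphite reductase gene (LOC_Os02g52730) stood at 85.5, 83.1 and 97.4 FPKM in spx4 and 3.89, 0.73 and 3.66 in bHLH6-OV roots, with 0.745 ± 0.351 in WT (log2 fold change 4.72, limma adjusted p = 1.45e-06). In both, as in the MutS-type mismatch repair gene LOC_Os07g30240 (11.3 ± 1.98 against 0.0577 ± 0.0607 FPKM), the RNA was near 0 in bHLH6-OV and in WT and plentiful in spx4. An amino acid transporter gene (LOC_Os04g12499) showed that order too, at 4.29, 6.81 and 8.59 FPKM in spx4, 0.144, 0.145 and 0.0948 in bHLH6-OV and 0.167 ± 0.0661 in WT. A short-chain dehydrogenase gene (LOC_Os11g25220) stood at 12.7, 6.05 and 4.89 FPKM in spx4 and 0.324, 0.90 and 0.0712 in bHLH6-OV roots, with 0.173 ± 0.179 in WT.

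Other genes higher in spx4 were about as high in WT, and bHLH6-OV was the low one of the 3 groups. An NADH:flavin oxidoreductase gene (LOC_Os06g11240) stood at 8.58, 9.06 and 15.6 FPKM in spx4 and 0.587, 0.388 and 0.377 in bHLH6-OV, with 8.98 ± 0.409 in WT (log2 fold change 3.01, limma adjusted p = 2.87e-07). A terpene synthase gene (LOC_Os04g27190) stood at 9.45, 7.63 and 7.84 FPKM against 1.47, 1.18 and 1.49, with 10.9 ± 1.71 in WT. In these 2 genes each spx4 and WT library lay above each bHLH6-OV library. The class III peroxidase gene LOC_Os05g04410, of an enzyme family that oxidises cell wall phenolics, stood at 39.5, 52.6 and 60.1 FPKM against 13.2, 14.8 and 15, with 54.4 ± 4.84 in WT, a 3.54-fold difference between the lines. A homeobox-like gene (LOC_Os01g74020) and an NmrA-like gene (LOC_Os01g01660) were 4.52-fold and 3.22-fold higher in spx4 than in bHLH6-OV, with WT at 6.04 ± 0.66 and 49.7 ± 2.89 FPKM. An ABA/WDS-induced gene (LOC_Os01g73250), of a family raised by abscisic acid and water deficit, stood at 23.8, 24.4 and 26 against 6.8, 2.98 and 12 FPKM, with 28.3 ± 5.41 in WT (limma adjusted p = 0.00636, and 0.050 with the replicate number as a block).

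On the other side, the named gene furthest below bHLH6-OV in spx4 roots was a subtilase-type peptidase gene near the start of chromosome 4 (LOC_Os04g03796, chromosome 4 from 1702003 to 1710519). It stood at 0.0226, 0 and 0.00711 FPKM in spx4 and 90.3, 72.5 and 72.3 in bHLH6-OV roots, with 45.7 ± 8.85 in WT (log2 fold change -6.29, limma adjusted p = 1.72e-10). Of the 12 lowest named genes, 9 lie on chromosome 4, bHLH6 among them. A legume lectin domain gene (LOC_Os04g03579), of a family that binds sugars, stood at 13.2, 15.9 and 13.9 FPKM in spx4 and 197, 159 and 175 in bHLH6-OV, with 233 ± 9.5 in WT. A papain-type cysteine protease gene (LOC_Os04g13140) stood at 0.686, 0.451 and 0.404 FPKM against 25.2, 26.1 and 27.8, with 9.8 ± 0.675 in WT. In WT the peptidase and lectin genes were nearer to bHLH6-OV, and the protease gene lay between the lines. A protein kinase gene (LOC_Os04g04800), a Pif1-like helicase gene (LOC_Os04g04390) and a wall-associated kinase gene (LOC_Os04g30110) also had WT levels near bHLH6-OV. They stood at 0, 0.00722 and 0 FPKM in spx4, 12.8 ± 1.43, 11.3 ± 2.18 and 6.2 ± 0.0756 in bHLH6-OV and 9.32 ± 0.492, 10.2 ± 0.415 and 5.04 ± 0.314 in WT.

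The remaining low genes had their highest level in bHLH6-OV and lower ones in both spx4 and WT. A FAD/NAD(P)-binding gene (LOC_Os01g25470) stood at 0, 0.272 and 0.112 FPKM in spx4, 14.8, 13.6 and 15.5 in bHLH6-OV and 0 in WT. On chromosome 7, a wall-associated receptor kinase gene (LOC_Os07g14470) and a neighbouring protein kinase gene (LOC_Os07g14490) stood at 0.251 ± 0.246 and 0.103 ± 0.129 FPKM in spx4 and 13.3 ± 3.23 and 9.33 ± 1.99 in bHLH6-OV. A short-chain dehydrogenase gene (LOC_Os04g32080) stood at 0.12 ± 0.079 against 10.4 ± 1.35 FPKM. The PLAT/LH2 domain gene LOC_Os04g38360 stood at 8.32, 5.44 and 2.83 FPKM in spx4 and 34, 48.2 and 88.6 in bHLH6-OV, with 4.55 ± 0.862 in WT (limma adjusted p = 0.000158, and 0.0878 with the replicate number as a block). Besides these 24 genes, 25 genes with no usable description were at least as far above, and 62 at least as far below.

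**Figure D1:**
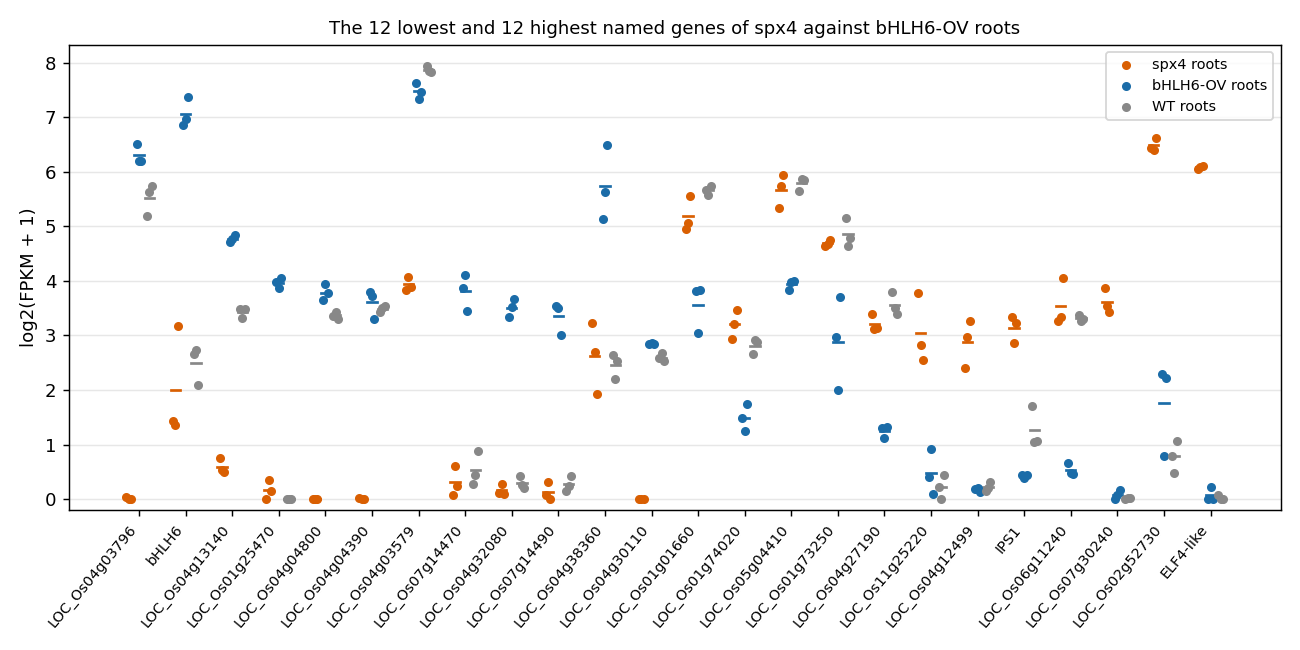
Each dot is 1 root library on the log2(FPKM + 1) scale and each bar a group mean, for the 12 lowest named genes (left, from LOC_Os04g03796) and the 12 highest (right, to ELF4-like) of spx4 against bHLH6-OV, with WT roots at 200 µM Pi in grey. The 24 genes were chosen among those whose spx4 (orange) and bHLH6-OV (blue) dots do not overlap. The grey WT dots lie with spx4 in some genes and with bHLH6-OV in others.

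Some genes were present in 1 line and without a read in the other. In bHLH6-OV roots 19 genes had 0 reads in all 3 libraries and at least 1 FPKM in every spx4 library, and 16 of these also had 0 reads in WT roots. The reverse held for 100 genes, of which 58 had 0 reads in WT roots and 29 were at 1 FPKM or more in every WT root library. In shoots, 12 of the 19 and 63 of the 100 were silent in the same line and on in the other by the same rule. Most had no usable description (17 and 84), and 3 and 26 were unannotated transcripts. Of the 19 and the 100, 10 and 60 were called by limma, and the others did not pass or were not tested. On chromosome 4, which holds 1952 of the 22090 tested genes, lie 3 of the 19 and 25 of the 100. The spx4 root libraries held on average more reads than those of bHLH6-OV.

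The gene LOC_Os09g24720 stood at 78.1, 77.4 and 81.9 FPKM in spx4 roots and was at least 1529-fold higher than in bHLH6-OV, against a floor of 3 reads over the bHLH6-OV group. By the same floor LOC_Os07g35180 and LOC_Os07g35160, which lie close together on chromosome 7, were at least 203-fold and 128-fold higher, and LOC_Os07g10990 at least 93.7-fold. None of these 4 has a description, and each stood at 0 or at most 0.0356 FPKM in WT roots. In the other direction LOC_Os07g35979 stood at 72.6, 81.6 and 85.9 FPKM in bHLH6-OV, with a WT level of 113 ± 2.27, at least 4784-fold above spx4. LOC_Os03g12280 stood at 55.4, 70.1 and 61.9 FPKM in bHLH6-OV roots and 0 reads in both spx4 and WT, at least 897-fold above spx4. LOC_Os06g11230 and LOC_Os08g28000 were likewise on in bHLH6-OV alone among these 3 groups, by at least 356-fold and 132-fold, and LOC_Os07g39450 by at least 245-fold with WT at 0.0278 FPKM.

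The 2-fold calls were unevenly spread along the chromosomes. Of the 544 tested genes that start within the first 20 Mb of chromosome 4, 59 were called with at least a 2-fold difference (10.8%), 46 lower in spx4 and 13 higher. The rest of chromosome 4 gave 20 of 1408 (1.42%) and the other chromosomes 306 of 20138 (1.52%). In the first 20 Mb of chromosome 4 the WT level was nearer to bHLH6-OV for 48 of the 59 genes, and in the rest of that chromosome for 0 of 20. In windows of 2 Mb holding 20 or more tested genes, of which there were 191, the highest shares were 31.6% from 14 to 16 Mb and 25% from 2 to 4 Mb of chromosome 4. Chromosome 11 from 6 to 8 Mb held 15.1% (13 genes, 12 with WT nearer to bHLH6-OV) and chromosome 7 from 20 to 22 Mb held 10.1% (12 genes, 10 with WT nearer to bHLH6-OV), while 45 windows held none. The gene bHLH6 itself lies at 13.5 Mb of chromosome 4 in the coordinates of the deposited table. The 20 Mb limit was set after earlier results of these data were known, so these shares are descriptions, and the genome build is not given in the sources used here.

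**Figure D2:**
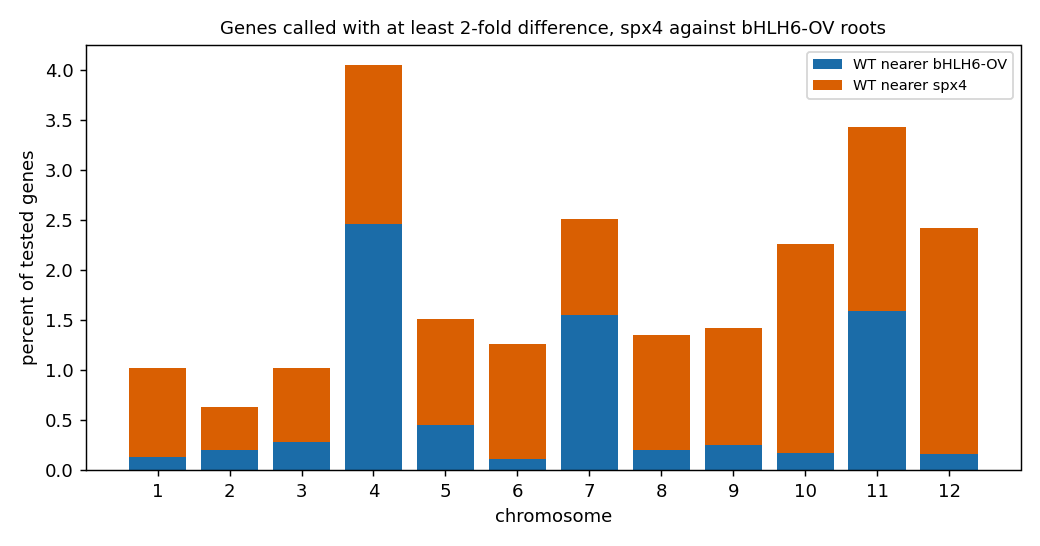
Bars give, for each of the 12 chromosomes, the percent of tested genes called with at least a 2-fold difference between spx4 and bHLH6-OV roots, split by whether the WT root mean lay nearer to bHLH6-OV (blue) or to spx4 (orange). Chromosome 4 stands at 4.05% and chromosome 11 at 3.43%, against 0.633% on chromosome 2.

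Pi starvation genes did not differ in 1 direction. Of 16 such genes tested, 4 were higher in spx4 than in bHLH6-OV, namely IPS1, SPX1, SPX2 and GDPD2, and 2 were lower, the Pi transporters PT2 and PT3, against 3.12% and 3.46% of all genes. With the replicate number as a block 4 were lower. The median log2 fold change of the 16 was 0.0938 against 0.0185 over all genes. All 6 called genes had a higher mean in WT at low Pi than in WT at 200 µM Pi.

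IPS1, a non-coding RNA that is a hallmark of Pi shortage, stood at 9.1, 6.24 and 8.31 FPKM in spx4 roots and 0.363, 0.314 and 0.365 in bHLH6-OV roots, with 2.26, 1.07 and 1.09 in WT. The WT libraries lay between the 2 lines without overlap (22.7-fold between the lines, log2 fold change 2.71, limma adjusted p = 8.51e-07), and all of them were far below the 1593 ± 179 FPKM of WT at low Pi. SPX2, a nuclear SPX protein that restrains PHR2, stood at 4.06, 3.67 and 4.21 FPKM in spx4 and 0.105, 0 and 0.0462 in bHLH6-OV, with 5.68 ± 0.938 in WT and 54.3 ± 14 in WT at low Pi (log2 fold change 2.24, limma adjusted p = 4.63e-06). SPX1, its close relative, stood at 16.2, 15.9 and 16.1 FPKM in spx4 and 7.93, 6.97 and 7.9 in bHLH6-OV, with 12.7 ± 0.438 in WT, so its spx4 libraries were the highest of the 3 groups, all below the 145 ± 26.1 of WT at low Pi. GDPD2, a phosphodiesterase that acts on products of membrane lipid breakdown, stood at 45.6, 45.6 and 51.5 against 27.9, 28.2 and 28.8 FPKM, with 49.9 ± 3.52 in WT. For SPX2 and GDPD2 the WT level lay nearer to spx4, and low Pi raised GDPD2 to 309 ± 24.2 in WT.

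Other genes of the list did not pass. SPX5 stood at 2.09 ± 0.282 against 1.9 ± 0.148 FPKM and SPX6 at 1.5 ± 0.188 against 1.53 ± 0.247, both of them raised to 181 ± 39.7 and 167 ± 45.3 in WT at low Pi. The secreted phosphatase gene PAP10a stood at 11.2 ± 0.349 against 11.3 ± 1.07 FPKM, the sulfolipid synthase gene SQD2 at 4.98 ± 0.427 against 4.48 ± 0.739, and SPX3 at 0.0778 ± 0.0621 against 0.00626 ± 0.0108. The phosphatase gene PECP1 stood at 6.13, 8.66 and 8.94 FPKM in spx4 and 5.39, 5.08 and 5.48 in bHLH6-OV (limma adjusted p = 0.0612, and 0.00941 without spx4 replicate 1).

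Among the PHT1 family, the plasma membrane carriers that take up Pi, 0 of 8 tested were higher in spx4 and 2 were lower. That is 25% called, against 6.58% of all genes tested. At an unadjusted limma p under 0.05, 0 were higher, and with the replicate number as a block 5 were lower. PT2, a low-affinity transporter, stood at 31.4, 35 and 31.2 FPKM in spx4 roots and 100.9, 83 and 76.2 in bHLH6-OV roots, with 18.3 ± 0.222 in WT and 97.8 ± 21.2 in WT at low Pi. The 3 bHLH6-OV values lay within the range of the low Pi WT libraries, and the spx4 values lay between WT and bHLH6-OV (2.66-fold between the lines, log2 fold change -1.38, limma adjusted p = 0.000106). PT3 followed at a far lower level, 0.434, 0.639 and 0.676 against 1.48, 1.56 and 1.55 FPKM, with 0.145 ± 0.0177 in WT and 48.5 ± 6.83 at low Pi (limma adjusted p = 0.00197). PT8, a high-affinity transporter, stood at 28, 36.9 and 69.7 FPKM in spx4 and 56.5, 48.1 and 95.7 in bHLH6-OV (limma adjusted p = 0.251, 0.0443 with the replicate block and 0.0442 without spx4 replicate 3). In both lines its replicate 3 was the highest. PT1, which is expressed regardless of Pi supply, stood at 84.1 ± 5.91 against 81.4 ± 9.57 FPKM, and PT4 at 6.05 ± 1.09 against 8.79 ± 1.5 (limma adjusted p = 0.215, and 0.0175 with the replicate block). PT10 (0.195 ± 0.0533 against 0.835 ± 0.241 FPKM, limma adjusted p = 0.0969) passed with the replicate block (adjusted p = 0.0223), and it is a close copy of PT9, so the division of reads between them is uncertain.

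Of 15 regulators of the pathway tested, 3 were called (20%, against 6.58% of all genes tested), each lower in spx4. Besides bHLH6 and SPX4 this was the ubiquitin ligase gene NLA1, whose protein marks Pi transporters for breakdown. It stood at 9.81, 8.59 and 9.72 FPKM in spx4 and 12.9, 11.5 and 14.6 in bHLH6-OV (log2 fold change -0.43, limma adjusted p = 0.0252). The adjusted p became 0.113 and 0.0578 without spx4 replicate 2 or 3 and 0.0708 and 0.0807 without bHLH6-OV replicate 1 or 3. PHR2, the central activator, stood at 20.7 ± 0.527 against 21 ± 1.35 FPKM, and PHR1, PHR3 and PHR4 had log2 fold changes of -0.0795, -0.28 and 0.0426. PHO2, whose product limits Pi transporters, stood at 84.7 ± 13.9 against 90.4 ± 4.04 FPKM, above the 61 ± 2.25 of WT in every library of both lines. The SPX-domain vacuolar transporter gene SPX-MFS3 stood at 19.9 ± 3.01 against 30.5 ± 10.6 FPKM (limma adjusted p = 0.131), and the vacuolar efflux genes VPE1 and VPE2 had log2 fold changes of 0.0514 and 0.34.

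Of 18 purple acid phosphatase genes, whose products release Pi from organic compounds, 4 were lower in spx4 and 1 was higher. Called members made 27.8%, against 6.58% of all genes tested. The largest difference was in LOC_Os11g05400, at 3.18, 2.4 and 3.35 FPKM in spx4 and 16.3, 14.7 and 12.3 in bHLH6-OV, with 4.51 ± 0.952 in WT and 96.7 ± 31.2 in WT at low Pi (4.85-fold between the lines, limma adjusted p = 0.00015). LOC_Os08g41880 stood at 51.4, 37.2 and 44.2 against 83.9, 69.1 and 103 FPKM and LOC_Os12g05540 at 2.24, 3.47 and 3.34 against 6.15, 5.18 and 5.99, and neither had a higher mean at low Pi in WT (19.8 ± 1.14 and 3.78 ± 0.819 FPKM at low Pi, 47.3 ± 7.14 and 4.02 ± 0.188 at 200 µM). The fourth, LOC_Os08g17784, stood at 0.54 ± 0.114 against 1.06 ± 0.165 FPKM, and the gene that was higher in spx4, LOC_Os12g38760, at 28.7 ± 3.19 against 20.3 ± 2.48. Calls of these last genes ended without spx4 replicate 3 (adjusted p = 0.0681 and 0.0656), and that of LOC_Os08g17784 also without spx4 replicate 1 (adjusted p = 0.0503) or bHLH6-OV replicate 1 (adjusted p = 0.076) or bHLH6-OV replicate 2 (adjusted p = 0.0542), that of LOC_Os12g38760 also without bHLH6-OV replicate 3 (adjusted p = 0.0529). With the replicate block their adjusted p were 0.0762 and 0.0531 in limma.

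The summed level of the iron genes was lower in both lines than in WT roots, a difference that was not tested over the list. The list summed to 253 to 586 FPKM in spx4 roots, 198 to 278 in bHLH6-OV roots and 1871 to 3094 in WT roots. Of 19 tested, the means of both lines lay below that of WT for 15 and above it for 4, the ferritin gene FER2 being one of the latter. Between the lines, 1 was higher in spx4 than in bHLH6-OV and 3 were lower (21.1% called, against 6.58% of all genes tested). With the replicate block or without spx4 replicate 2, 2 and 3 were higher, and without spx4 replicate 3 or bHLH6-OV replicate 2 1 was lower. Grasses take up iron with phytosiderophores, chelators made from nicotianamine and released into the soil. NAS1, a nicotianamine synthase gene, stood at 37, 27.5 and 127 FPKM in spx4 and 25, 7.59 and 18.2 in bHLH6-OV roots, with 839, 514 and 444 in WT. All 6 values of the lines lay below the WT libraries, the 3 spx4 values lay above the 3 bHLH6-OV values, and spx4 replicate 3 stood far above replicates 1 and 2. The difference between the lines did not pass (log2 fold change 1.67, SE 0.61, limma adjusted p = 0.131). NAS2, a close copy, stood at 40.8, 36.7 and 160.4 against 30.2, 8.55 and 23.3 FPKM (adjusted p = 0.141 in limma), and the division of reads between these copies is uncertain.

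Other genes of the uptake route had a higher mean in spx4 than in bHLH6-OV and did not pass. YSL15, which imports the iron complex, stood at 12.9, 7.9 and 38.1 FPKM in spx4 and 7.81, 2.89 and 4.64 in bHLH6-OV, with 148 ± 27.6 in WT (limma adjusted p = 0.0895, and 0.0471 without spx4 replicate 2). DMAS1, the last enzyme of the pathway, stood at 38.8, 29.2 and 54.3 against 24.2, 16 and 21 FPKM, with 189 ± 34.7 in WT (limma adjusted p = 0.061, 0.0134 with the replicate block and 0.0495 without spx4 replicate 2). TOM1, the exporter of the chelator, stood at 13.9, 7.56 and 22.5 against 13.5, 4.71 and 8.53 FPKM, and here the lines overlapped. For NAAT1, NRAMP1 and the regulator IRO2 the log2 fold changes were 0.94, 0.72 and 0.48.

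IRT1, the ferrous iron importer, was the iron gene that passed on the spx4 side, at 9.94, 11 and 11.8 FPKM in spx4, 6.31, 6.72 and 5.75 in bHLH6-OV and 44.2 ± 3.94 in WT (1.74-fold between the lines, limma adjusted p = 0.00178). It overlaps a second gene model in the deposited coordinates, so part of its reads may belong to that model. NAS3, a nicotianamine synthase gene regulated apart from NAS1 and NAS2, went the other way, at 11.8, 11.7 and 11.6 FPKM in spx4, 23, 18.2 and 18.3 in bHLH6-OV and 26.4 ± 3.95 in WT (limma adjusted p = 0.00332). The ferritin gene FER2, which encodes an iron store, stood at 9.48, 10.1 and 9.02 against 12.8, 14.9 and 12.7 FPKM, with 6.71 ± 0.823 in WT, and is a close copy of FER1 (13.5 ± 2.72 against 18.8 ± 1.31 FPKM, limma adjusted p = 0.0583, and 0.0234 without spx4 replicate 1). The call of FER2 (limma adjusted p = 0.0165) ended without spx4 replicate 3 (adjusted p = 0.0665) or bHLH6-OV replicate 2 (adjusted p = 0.0629). The vacuolar iron transporter gene VIT2 stood at 4.85, 6.1 and 4.34 against 6.47, 11.8 and 8.68 FPKM (limma adjusted p = 0.0395), and its call ended without spx4 replicate 1 or 3 or bHLH6-OV replicate 2 or 3 (adjusted p up to 0.135). Thus 1 lower iron call, NAS3, held with each library left out.

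**Figure D3:**
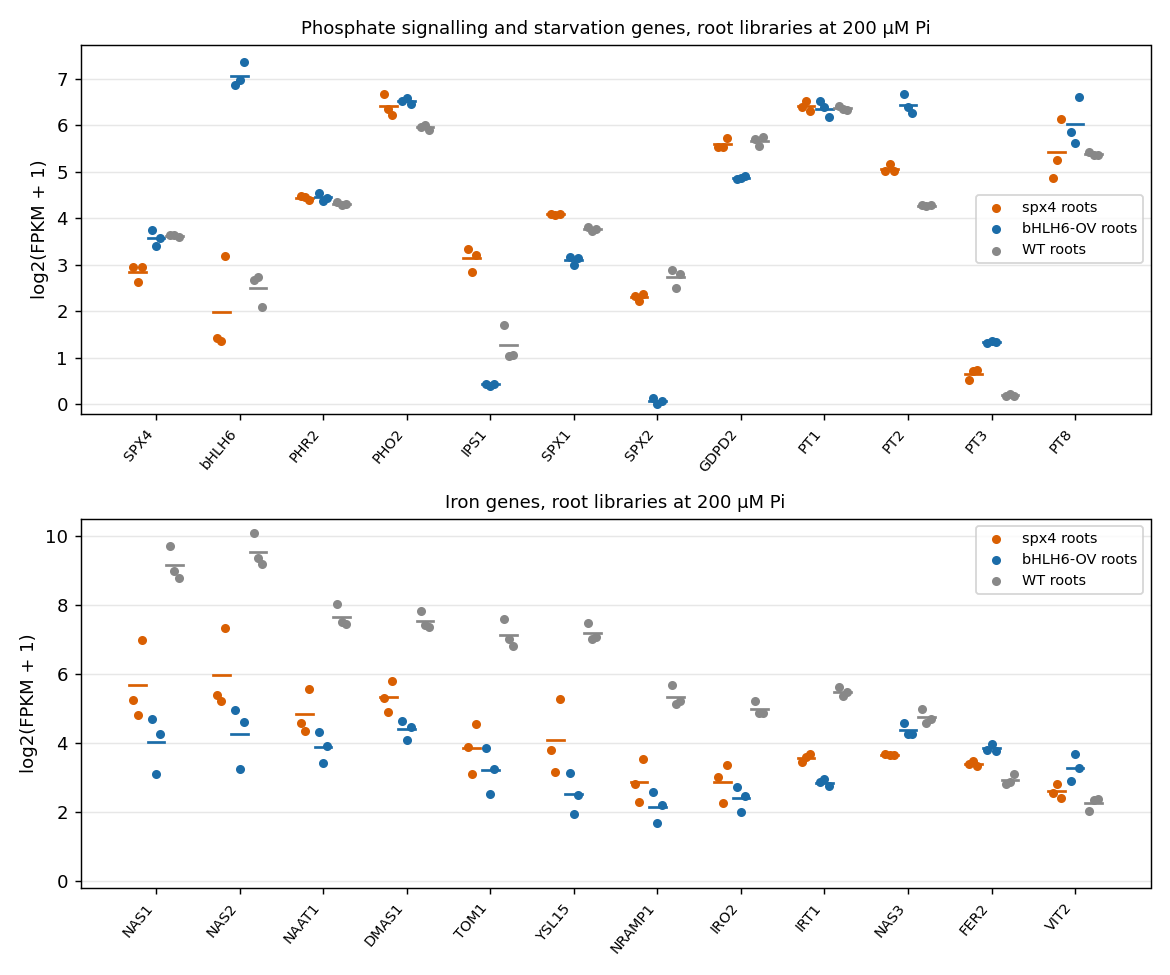
Dots are single root libraries and bars group means on the log2(FPKM + 1) scale for 12 Pi genes (top) and 12 iron genes (bottom) in spx4, bHLH6-OV and WT roots at 200 µM Pi. IPS1, SPX1, SPX2 and GDPD2 lie higher in spx4 than in bHLH6-OV and PT2 and PT3 lower, while NAS1 to IRT1 lie below WT in both lines.

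Lists of nitrogen and jasmonate genes held no call in this contrast. Of 13 nitrate and ammonium genes, 0 passed in limma (4 at an unadjusted p under 0.05, all lower in spx4), with a median log2 fold change of -0.28, and 2 were called lower in spx4 without bHLH6-OV replicate 2. The nitrate transport partner gene NAR2.1 stood at 331 ± 20.2 against 407 ± 85.3 FPKM, the nitrate reductase gene NIA1 at 15 ± 0.788 against 19.4 ± 0.78 (limma adjusted p = 0.0777, and 0.0336 with the replicate block) and the nitrite reductase gene NIR1 at 584 ± 76.7 against 633 ± 66.1. Of 8 genes of jasmonate synthesis and perception, 0 passed in limma (2 at an unadjusted p under 0.05), or 3 as lower in spx4 with the replicate block, AOS2, JAR1 and MYC2. AOC, the allene oxide cyclase that acts in making jasmonate, stood at 50.02, 59.1 and 85.5 FPKM in spx4 and 64.7, 58.1 and 107 in bHLH6-OV roots, and JAR1, which makes the active jasmonate conjugate, at 21.7, 24.8 and 54.2 against 45.8, 32.9 and 74.7. In each line replicate 3 held the highest value of both genes, and the adjusted p of JAR1 was 0.275 in limma and 0.0485 with the block. MYC2, the main jasmonate transcription factor, had a log2 fold change of -0.43 (limma adjusted p = 0.182, and 0.0227 with the block). AOS2, an allene oxide synthase of the pathway, had one of -0.44 (limma adjusted p = 0.128, and 0.040 with the block).

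The receptor COI1b stood at 43 ± 3.63 against 41.9 ± 2.09 FPKM. Zim domain proteins, the family of the JAZ repressors of jasmonate signalling, gave 1 lower of 14 (7.14% called, against 6.58% of all genes tested). With the replicate block 6 were lower, and the median log2 fold change was -0.46. The call without the block was LOC_Os06g48534, annotated with a CCT domain. It stood at 10.4, 9.93 and 10.0 FPKM in spx4 and 15.8, 16 and 16.1 in bHLH6-OV. The silicon transporter genes LSI1 and LSI2 had log2 fold changes of -0.29 and -0.29. Of 9 clock genes ELF4-like alone passed (11.1% called, against 6.58% of all genes tested), or LHY as well with the replicate block. The morning gene LHY and the evening gene GI had log2 fold changes of -0.37 and 0.0781. Without spx4 replicate 1, PRR37 and PRR73 passed as lower. Of 211 ribosomal protein genes, 1 was called higher and 1 lower (0.948% called). The lower call ended without any 1 of 5 libraries, all but spx4 replicate 1.

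Of 17 wall-associated kinase genes, whose products link the cell wall to signalling, 6 were lower in spx4 and 0 higher. That is 35.3% called, against 6.58% of all genes tested. There were 5 or 6 lower without any 1 library, and 0 higher at an unadjusted limma p under 0.05. Besides LOC_Os07g14470 and LOC_Os04g30110, LOC_Os05g47750 stood at 1.15, 1.11 and 0.981 FPKM in spx4 and 12.1, 11.6 and 10.5 in bHLH6-OV, with 11.1 ± 0.29 in WT (log2 fold change -2.58, limma adjusted p = 4.17e-09). LOC_Os04g30340 stood at 0.428, 0.339 and 0.242 against 3.28, 3.02 and 1.71 FPKM, with 2.08 ± 0.431 in WT. Of these 4 genes, 3 had a WT level nearer to bHLH6-OV and LOC_Os07g14470 one nearer to spx4. Over the whole list the WT level was nearer to spx4 in 10 of the 17.

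WRKY transcription factors, which act largely in defence and stress, gave 9 lower and 0 higher of 68, with a median log2 fold change of -0.20. That is 13.2% called, against 6.58% of all genes tested. There were 7 to 10 lower without any 1 library and 4 in the fit of the 6 libraries alone. At an unadjusted limma p under 0.05, 1 was higher. LOC_Os05g50700 stood at 0.387, 0.436 and 0.505 FPKM in spx4 and 4.51, 3.22 and 5.28 in bHLH6-OV, with 0.314 ± 0.0895 in WT and 6.75 ± 1.92 in WT at low Pi (limma adjusted p = 4.23e-05). LOC_Os10g18099 stood at 22.4, 20.6 and 17.8 against 42.3, 43.3 and 45.5 FPKM, with 20.04 ± 3.09 in WT, and LOC_Os05g40070 at 2.03, 1.93 and 2.2 against 4.11, 4.54 and 4.36, with 1.89 ± 0.443 in WT. In each of the 3 genes the spx4 and WT means were close and bHLH6-OV was higher. NAC factors gave 3 higher and 6 lower of 68 (13.2% called), or 16 lower with the replicate block. AP2/ERF factors gave 0 higher and 4 lower of 85 (4.71% called), or 2 higher and 12 lower with the block. The lower NAC calls numbered 3 without spx4 replicate 1 or 2 and 2 without spx4 replicate 3 or bHLH6-OV replicate 1, and the higher ones 1 without spx4 replicate 1 or 2 or bHLH6-OV replicate 3. The lower AP2/ERF calls numbered 2 without spx4 replicate 3 or bHLH6-OV replicate 1. LOC_Os06g36480 of the NAC family stood at 1.79 ± 0.186 against 4.58 ± 0.914 FPKM and LOC_Os04g32620 of the AP2/ERF family at 1.18 ± 0.0399 against 3.56 ± 0.231. In the opposite direction the NAC gene LOC_Os11g45950 stood at 41.3 ± 0.302 against 24.9 ± 4.98 FPKM.

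NB-ARC genes, which encode intracellular immune receptors and often occur in clusters of close copies, gave 12 higher and 24 lower of 273. That is 13.2% called, against 6.58% of all genes tested, and 13 were lower without spx4 replicate 2. LOC_Os11g12240 and LOC_Os04g25900 had 0 reads in the spx4 root libraries and stood at 1.89, 2.19 and 2.35 and 1.94, 2.13 and 1.75 FPKM in bHLH6-OV, with 2.47 ± 0.107 and 3.35 ± 0.101 in WT. LOC_Os06g15750 stood at 1.8, 2.53 and 1.53 against 8.56, 7.97 and 5.1 FPKM, with 2.32 ± 0.29 in WT. Among those higher in spx4, LOC_Os11g45970 stood at 16.8, 16.8 and 19.4 against 8.8, 10.2 and 6.91 FPKM and its neighbour LOC_Os11g45980 at 8.0 ± 0.843 against 4.28 ± 0.781. The NAC gene LOC_Os11g45950 lies in the same stretch of chromosome 11. Legume lectin domain genes, a group chosen here after the values were seen, gave 5 lower and 0 higher of 29. The lower ones made 17.2%, against 3.46% of all genes tested, and numbered 3 without spx4 replicate 1 or 3 or bHLH6-OV replicate 1 or 3. Besides LOC_Os04g03579, LOC_Os08g03002 stood at 0.0209 ± 0.0232 against 3.1 ± 0.0749 FPKM and LOC_Os04g04770 at 6.14 ± 1.3 against 12.7 ± 1.71, with WT at 4.62 ± 0.622 and 10.9 ± 0.766.

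Of 29 aquaporin genes, which encode water channels, 6 were higher in spx4 and 1 was lower (24.1% called, against 6.58% of all genes tested). The higher calls numbered 4 to 10 without any 1 library, and 10 without spx4 replicate 1. LOC_Os01g74450 stood at 304, 272 and 259.6 FPKM in spx4 roots and 109, 99.7 and 85.7 in bHLH6-OV roots, with 201 ± 18.8 in WT (2.83-fold between the lines, limma adjusted p = 0.00177). The neighbouring genes LOC_Os07g26630 and LOC_Os07g26660 stood at 142, 154 and 174 and 26.2, 26.1 and 31 FPKM in spx4 and 95.4, 81.4 and 76.9 and 14.6, 13.8 and 14.3 in bHLH6-OV. Their WT means, 179 ± 16.8 and 28.4 ± 4.6 FPKM, lay near spx4, and WT was nearer to spx4 in 26 of the 29 genes. The lower gene, LOC_Os12g10280, stood at 4.54 ± 0.555 against 6.61 ± 0.538 FPKM, and its call ended without spx4 replicate 2 or 3 or bHLH6-OV replicate 1 or 3 (adjusted p up to 0.0948) or with the replicate block (0.0561).

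Class III peroxidases were called in both directions, with 11 of 119 higher in spx4 and 7 lower, or 17 and 11 with the replicate block. Their called share was 15.1%, against 6.58% of all genes tested. The count of higher calls ran from 4 without spx4 replicate 2 or 3 to 19 without spx4 replicate 1, and was 6 without bHLH6-OV replicate 1 or 3 and 7 without bHLH6-OV replicate 2, and the lower calls fell to 4 without spx4 replicate 3 or bHLH6-OV replicate 1 or 2. After LOC_Os05g04410, LOC_Os01g73170 stood at 44, 64.1 and 74.1 FPKM in spx4 and 29.7, 28.4 and 21.3 in bHLH6-OV, with 60.5 ± 6.49 in WT. LOC_Os07g34710 and LOC_Os08g20730 went the other way, at 3.36, 3.91 and 2.28 and 10.3, 8.64 and 5.87 FPKM in spx4 and 12.2, 16.2 and 11.7 and 26, 19.98 and 16.3 in bHLH6-OV. A chitinase-family gene of high level, LOC_Os05g15770 (glycoside hydrolase family 18), stood at 880.0, 934 and 989.8 FPKM in spx4 and 631, 516 and 507 in bHLH6-OV, with 1252 ± 80.7 in WT and 2502 ± 126 in WT at low Pi. Chitinases as a list gave 2 higher and 2 lower of 34 (11.8% called), with 4 higher without spx4 replicate 1 and 1 without spx4 replicate 2. Among terpene synthases 1 of 11 was higher, LOC_Os04g27190, and 1 lower, LOC_Os04g26960 (18.2% called, against 6.58% of all genes tested). The lower gene stood at 1.17, 1.07 and 1.38 against 6.98, 9.9 and 7.89 FPKM, with 10.8 ± 2.34 in WT. These 2 genes, close together on chromosome 4, thus went opposite ways between the lines, and both stood high in WT.

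Metal-binding genes were a further group chosen after the values were seen. Heavy metal-associated (HMA) domain genes gave 8 higher and 1 lower of 42. Zinc/iron permeases, the family of IRT1, gave 3 higher and 0 lower of 16. The higher calls made 19% of the HMA genes and 18.75% of the permeases, against 3.12% of all genes tested. In the fit of the 6 libraries alone, the higher calls numbered 4 for HMA genes and 1 for permeases, with 0 lower in either group. The 8 higher HMA calls became 12 with the replicate block, 4 without spx4 replicate 2 and 3 without spx4 replicate 3. LOC_Os12g23280 of the HMA group stood at 59.7, 66.4 and 75.3 FPKM in spx4 and 37.7, 33.5 and 33.9 in bHLH6-OV, with 85.6 ± 2.9 in WT. The permease genes LOC_Os08g01030 and LOC_Os03g29850 stood at 3.78 ± 0.447 and 25 ± 2.88 FPKM in spx4 against 1.93 ± 0.672 and 17.2 ± 2.03 in bHLH6-OV. Cytochrome P450 genes were called in both directions, with 11 higher and 9 lower of 158 (20 lower with the replicate block). So were glutathione S-transferases, with 4 and 4 of 57 (6 higher and 8 lower with the block). The called shares were 12.7% for P450 genes and 14% for glutathione S-transferases, against 6.58% of all genes tested. The P450 calls fell to 5 higher without spx4 replicate 2, 6 higher and 4 lower without spx4 replicate 3, 4 lower without bHLH6-OV replicate 1, 6 and 5 without bHLH6-OV replicate 2 and 6 higher without bHLH6-OV replicate 3. The glutathione S-transferase calls ran from 2 to 7 higher and from 1 to 4 lower, with the most higher without spx4 replicate 1, the fewest higher without spx4 replicate 2 or 3, and 1 or 2 lower without any library but spx4 replicate 1. LOC_Os07g44130 among the first stood at 2.01 ± 0.519 against 6.11 ± 0.619 FPKM, and LOC_Os03g39850 among the second at 3.26 ± 0.217 against 0.212 ± 0.104.

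**Figure D4:**
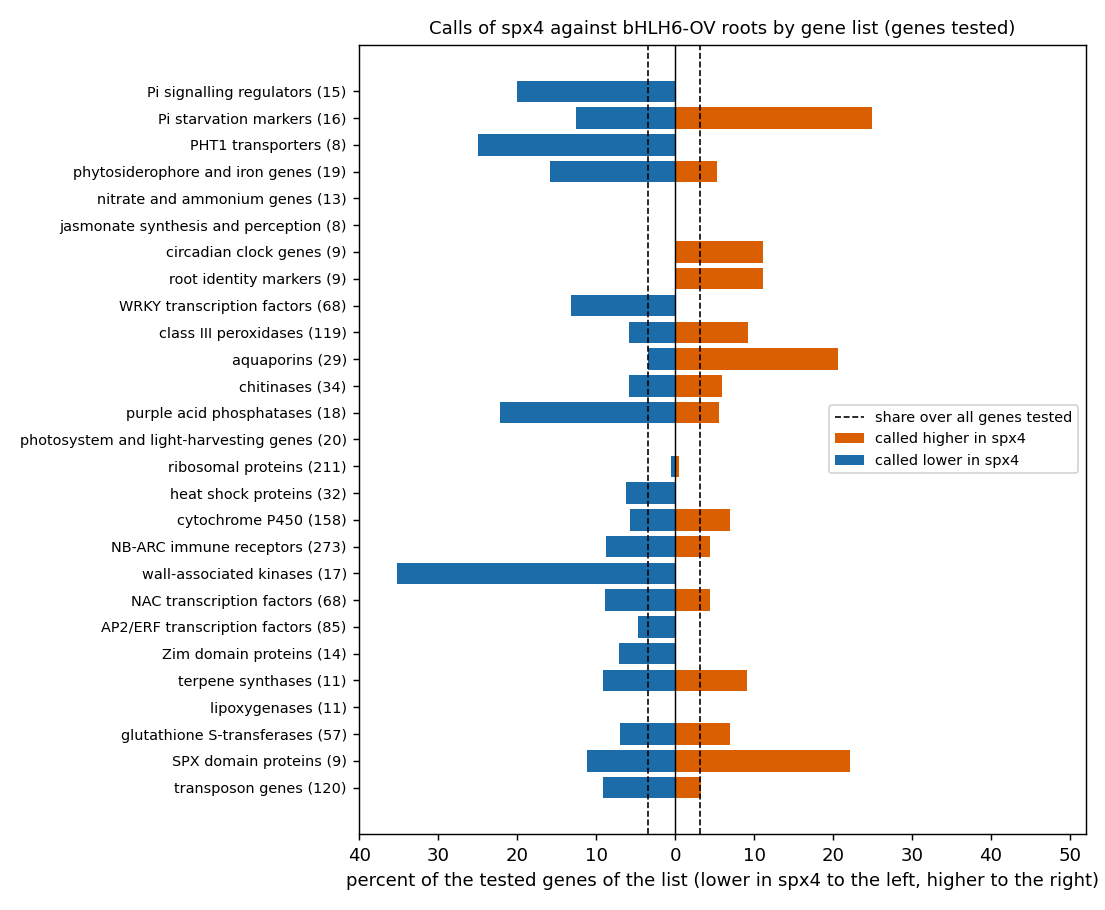
Bars give the percent of each list's tested genes (number in brackets, lists of 8 or more tested genes) called higher in spx4 (orange, right) or lower (blue, left) than in bHLH6-OV roots, and dashed lines the shares over all 22090 genes. Among the lists drawn, wall-associated kinases reach the furthest left with 6 of 17 and Pi starvation markers the furthest right with 4 of 16, and lists share members.

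More features had a read in bHLH6-OV roots than in spx4 or WT roots, and the same held for transposon-type genes. Features with a read numbered 31891 to 32393 in the bHLH6-OV root libraries, 31358 to 31787 in spx4 and 31188 to 31265 in WT. Of 7798 transposon-type features, 1242 to 1331 had a read in the bHLH6-OV root libraries, 1117 to 1202 in spx4 and 1014 to 1054 in WT roots. The ranges of the 3 groups do not overlap in either count, and neither difference was tested. Such counts also depend on depth. Reads in genes numbered 26.1 to 29.6 M in spx4 roots, 22.4 to 26.9 M in bHLH6-OV and 22.1 to 24.3 M in WT. Few features reached the level for testing. Of the 120 tested, 4 were higher in spx4 and 11 lower (12.5% called, against 6.58% of all genes tested). With no filter on low values 22 and 86 of 2765 were called, against 785 and 1298 of 38325 over all genes. LOC_Os10g26840 stood at 0, 0.0763 and 0.0472 FPKM in spx4 and 11.8, 12.8 and 13.2 in bHLH6-OV, and LOC_Os12g02780 at 0 reads in spx4 and WT and 5.37, 5.11 and 5.57 FPKM in bHLH6-OV. In the other direction LOC_Os04g11540, with a reverse transcriptase domain, stood at 3.8, 4.37 and 4.52 FPKM in spx4 and at 0 reads in bHLH6-OV and WT.

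On the deposited FPKM, the contrast gave more calls in shoots. There 6403 of 19990 genes were called between the lines (32%), and 5240 of 22980 had a difference that itself differed between root and shoot (22.8%), 2375 with the higher value in roots (10.3%) and 2865 with the lower (12.5%). Scaling to TPM moved this difference by a median of 0.30 on the log2 scale and gave 5370 and 1174. The deposited FPKM summed to 841904 to 879818 in spx4 shoot libraries and 619369 to 732285 in those of bHLH6-OV. The shoot contrast itself was not fitted with another scaling, so the part of this offset in its calls was not tested. Of the genes lower in spx4 roots with a 2-fold call, 168 were tested in shoots, where 127 were called in the same direction and 4 in the opposite. Of those higher in roots, 55 were tested in shoots, with 34 called in the same direction and 5 in the opposite. Over all calls the numbers were 161 of 446 higher and 240 of 508 lower. Across the 17437 genes tested in both tissues the log2 fold changes had a Pearson r of 0.387 and a Spearman rho of 0.0556. That is a description across genes, and root and shoot libraries may share their seedlings.

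ELF4-like held its difference in both tissues, with shoots of spx4 at 73.8 ± 7.13 FPKM and of bHLH6-OV at 0.478 ± 0.518 (root minus shoot difference 0.29, limma adjusted p = 0.329). The nitrite/sulphite reductase gene LOC_Os02g52730 stood at 30.4 ± 2.57 against 0.691 ± 0.436 FPKM in shoots. SPX2 stood at 6.95 ± 0.774 FPKM in spx4 shoots and 0.793 ± 0.229 in bHLH6-OV shoots, a log2 fold change of 2.15 against 2.24 in roots. IPS1 was at 0.173 ± 0.237 and 0.198 ± 0.342 FPKM in shoots, so its difference was seen in roots alone (root minus shoot 2.72, limma adjusted p = 6.91e-05). PT2 was near 0 in shoots (0.177 ± 0.139 and 0.144 ± 0.0332 FPKM).

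The papain-type gene LOC_Os04g13140 and the kinase gene LOC_Os04g04800 were among the genes with the largest root minus shoot differences (-4.18 and -3.78), and both were at 0 FPKM in the shoots of both lines. The aquaporin gene LOC_Os01g74450 stood at 871 ± 33.9 against 603 ± 91.1 FPKM in shoots (root minus shoot 0.96, limma adjusted p = 0.0131). Momilactone and phytocassane genes, which make diterpenoid phytoalexins, gave 1 higher of 4 tested in roots (the cytochrome P450 gene CYP71Z7, 1.72 ± 0.482 against 0.812 ± 0.197 FPKM) and 9 lower of 9 in shoots. Over all genes tested, 3.12% were called higher in roots, and 2751 of 19990 were called lower in shoots. CYP71Z7 stood at 0.354 ± 0.498 FPKM in spx4 shoots and 17.2 ± 9.99 in bHLH6-OV shoots (root minus shoot 4.18, limma adjusted p = 3.86e-06). Its call in roots ended in 4 of the 6 fits that left out 1 root library of the lines, with spx4 replicate 2, spx4 replicate 3, bHLH6-OV replicate 2 or bHLH6-OV replicate 3 left out (adjusted p from 0.0532 to 0.0776), and with the replicate block (0.0608).

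**Figure D5:**
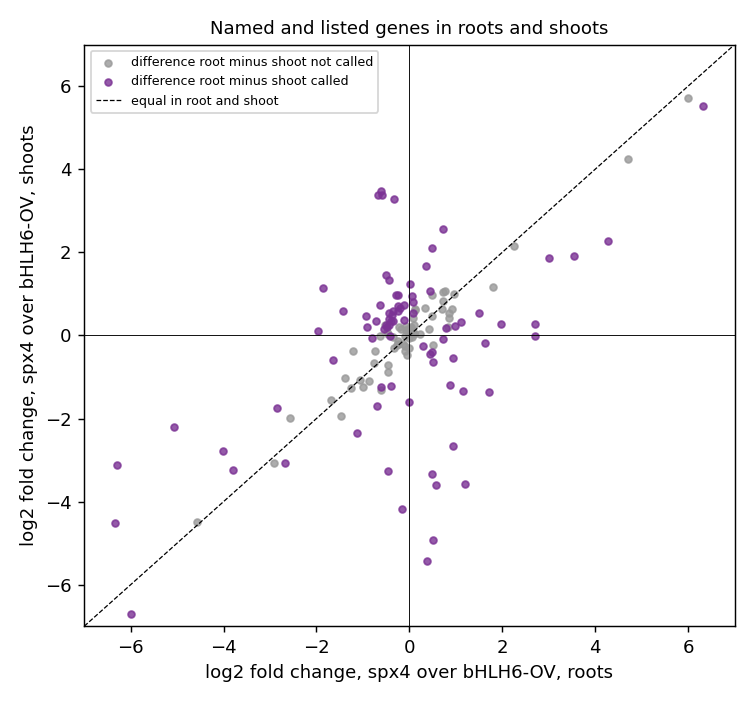
Each point is 1 of 150 named or listed genes tested in both tissues, with its log2 fold change of spx4 over bHLH6-OV in roots (horizontal) and shoots (vertical), purple where the root minus shoot difference was called (83 genes). ELF4-like lies close to the dashed line of equal change at the upper right. Points far below 0 on the vertical axis and near 0 on the horizontal one are genes higher in bHLH6-OV than in spx4 shoots, with little difference in roots.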

How the data were processed

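Messenger RNA libraries of the lines' roots were compared, 3 spx4 against 3 bHLH6-OV, grouped by their labels. Per the submitters' processing notes, HISAT2, StringTie, featureCounts 1.5.0-p3 and DESeq2 were used. Their settings, strand setting and genome build are not given in the sources used here, so values of overlapping genes and close copies are uncertain. The authors deposited FPKM for 57668 features. FPKM multiplied by gene length fell within 0.01 reads of whole multiples of 1 step in 100% of values, which gave the reads per gene. They totalled 21.0 to 29.6 M per library and set the floor of 3 reads for genes at 0, and both cover counting error only.

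Tests were run with limma 3.58.1 in R 4.3.3 on log2(FPKM + 1), with a trend and robust weights, over 12 root libraries and the 22090 genes with a mean of at least 1 FPKM, with Benjamini-Hochberg adjustment and calls under 0.05. The root minus shoot difference used all 24 libraries and 22980 genes. Simulated data of 22090 genes for the root contrast held 100 changes of each of 2 sizes, planted only in genes of higher level. Of these, 84% of 2-fold and 100% of 4-fold changes were recovered, with 8 false calls. The simulated libraries varied independently, without the shared deviations of same-numbered libraries given below. These rates thus do not cover genes of low level or such deviations. Spreads between libraries of a group are those of samples the labels call biological replicates. Other software was numpy 2.4.6, matplotlib 3.10.9 and pandas 2.3.3 under Python 3.11.15.

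Named genes are bHLH6 and SPX4, the 12 highest and 12 lowest called genes with a usable name, non-overlapping groups and a mean of at least 5 FPKM in 1 line, the called and defining members of gene lists, up to 5 genes at 0 reads in 1 line, and up to 6 root minus shoot differences in each direction. The genes and lists were chosen with earlier results of these data known. Of 107 symbols matched to loci from general knowledge, 99 carry a fitting family description and 8 have none in the deposited table. A RefSeq gene table of another assembly held a gene of that symbol on the same chromosome for 71.

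Same-numbered spx4 and bHLH6-OV root libraries deviated together (correlations 0.23, 0.29 and 0.48, against -0.36 to 0.19 for unlike numbers). A pairing by number was therefore tried as an alternative fit, with the replicate number as a block. The main fit, which gave the calls, holds no such block. The pairing comes from the values, since no label says what a number shares. The alternatives were that replicate block, another pseudocount (0.1), no filter or a mean of at least 5 FPKM, TPM and median-ratio scaling, the 6 libraries alone, no robust weights and each library left out.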

Additional observations from a re-analysis of the deposited data

Results flagged for a closer look

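The difference between spx4 and bHLH6-OV changed from root to shoot in 5240 of 22980 genes by limma's test of the difference itself. The 12 named genes below have the largest such differences among genes with a usable name. Values are means ± SD over 3 libraries in FPKM, and each root minus shoot value is on the log2 scale.

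In 6 genes the root value was the lower one. LOC_Os04g13140 (papain-type protease, -4.18) and LOC_Os04g04800 (protein kinase, -3.78) were lower in spx4 roots and at 0 in shoots of both lines. The cytochrome P450 gene LOC_Os02g47470 stood at 48.9 ± 5.93 in spx4 and 3.53 ± 1.22 in bHLH6-OV shoots (-4.10). The AP2/ERF-type gene LOC_Os08g36920 stood at 12.9 ± 7.13 in spx4 and 0.264 ± 0.371 in bHLH6-OV shoots (-4.05). The aminotransferase gene LOC_Os01g09700 stood at 45.4 ± 11.1 in spx4 and 3.39 ± 0.687 in bHLH6-OV shoots (-3.98). The glycoside hydrolase family 1 gene LOC_Os01g59840 stood at 18.1 ± 3.79 in spx4 and 0.949 ± 0.191 in bHLH6-OV shoots (-3.61). These last 4 genes were higher in spx4 shoots and were not called in roots.

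In the other 6 genes the shoots of bHLH6-OV held far more RNA than those of spx4. The SCP domain gene LOC_Os01g28450 stood at 1.15 ± 1.73 in spx4 and 417 ± 85.6 in bHLH6-OV shoots (7.80). The chitinase gene LOC_Os10g39680 stood at 3.13 ± 3.04 in spx4 and 163 ± 109 in bHLH6-OV shoots (5.81). The Bet v I family gene LOC_Os12g36850 stood at 6.76 ± 8.72 in spx4 and 155 ± 29.3 in bHLH6-OV shoots (5.45). Its family member LOC_Os12g36860 stood at 0.847 ± 1.47 in spx4 and 40.0 ± 7.29 in bHLH6-OV shoots (4.8). Also of this family, LOC_Os12g36880 stood at 75.1 ± 44.6 in spx4 and 827 ± 108 in bHLH6-OV shoots (4.79). The wall-associated kinase gene LOC_Os04g29810 stood at 0 ± 0 in spx4 and 30.8 ± 9.11 in bHLH6-OV shoots (4.72). In roots, LOC_Os12g36880 was called as higher in spx4 (10.8 ± 4.16 against 3.99 ± 1.07, limma adjusted p = 0.0219), the reverse of its shoots. That root call ended without spx4 replicate 3 or bHLH6-OV replicate 1 or 2 (adjusted p up to 0.0798).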

How the results depend on the processing

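With the replicate number as a block the root contrast gave 846 genes higher and 1064 lower in spx4, and 1140 of the 1454 calls were shared. Among the named genes the block ended 12 calls and added 9, and it changed no other named call. The fit of the 6 libraries alone gave 355 higher and 534 lower, no filter on low values 785 and 1298 (37.7% higher, against 47.5%), and a mean of at least 5 FPKM 465 and 377. With 1 library left out the higher count ran from 335 to 1055 and the lower from 478 to 904. The remaining settings (pseudocount 0.1, TPM, median-ratio scaling, no robust weights) gave 672 to 776 higher and 716 to 946 lower. No called gene changed sign in any of these 14 root settings. Only TPM and median-ratio scaling could have changed a sign, because the spx4 and bHLH6-OV libraries did not overlap in any called gene. Genes with a root minus shoot difference numbered 3822 to 6544 over the scaling, filter, pseudocount and block settings and 3783 to 5630 with 1 library left out, and 82.1% were higher in roots with TPM scaling against 45.3%. The cause of these changes was not tested. Depth limits genes under 1 FPKM, which the main test leaves out.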
